A study of Drosophila melanogaster with 7 samples.

Results

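Growing axons read their path from attractive and repulsive cues. Netrins attract axons through Frazzled and repel them through Unc-5, Slit repels them from the midline through the Robo receptors, and semaphorins act through plexins. Adhesion molecules of the immunoglobulin, fasciclin and leucine-rich repeat families bundle axons and match them to their targets, and heparan sulphate proteoglycans hold several of these ligands at the cell surface. Lola, a BTB zinc-finger transcription factor, is needed for the growth and guidance of many axons of the fly embryo.

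The genes described here are 47 named receptors, ligands and adhesion molecules of axon guidance. A gene counted as measured when at least 1 feature (a cDNA clone spotted on the array) was paired by the platform's annotation with that gene alone. On this rule 26 of the 47 genes were measured, by 32 features out of 10227 tested, and Dscam1, Dscam2, NLaz, Sdc, comm and sgl had 2 features each. The other 21 were not analysed here: sli, robo1, robo2, robo3, NetA, NetB, Fas2, Fas3, Ten-a, mfas, Sema1b, Sema2a, Sema2b, Ptp69D, Ptp10D, beat-Ib, side, Wnt5, otk, dally and jeb. Under this rule no feature stood for the ligands of the netrin, Slit and Alk systems or for the 3 Robo receptors. One further feature was annotated with both fra and a ribosomal protein gene and was not used.

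The mutant embryos were homozygous for the null allele lolaORE76 in a w1118 background and carried the driver sca-GAL4 on one copy of the second chromosome and the reporter UAS-tau-eGFP on the other. Control embryos had the same background, driver and reporter with no lola allele. Driver and reporter served to sort embryos by green fluorescence in the central nervous system, and each RNA sample came from about 300 whole embryos aged 10 to 12 hours after egg laying. On each of 7 spotted two-colour arrays, 1 mutant sample was hybridised against the control sample of the same collection. Cy5 marked the mutant sample on 3 arrays (1, 3 and 6), and on the other 4 (2, 4, 5 and 7) it was marked by Cy3. The same allele was recombined onto both marked chromosomes, so an effect of lola and one of another variant on that chromosome cannot be told apart. Mutant embryos also hold Lola supplied by the mother. In whole-embryo RNA, fewer cells of a type and less RNA per cell cannot be told apart either.

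All values are log2 ratios, and a positive value stands for more RNA in the mutant. The deposited table does not state its direction, and its signs were turned. Every one of the 580 features that the table shares with the supplementary list of changed clones carried the opposite sign to that list, whose legends give mutant over wild type, so the direction used here is likely rather than stated. The arrays had medians from -0.0204 to 0.022 and a spread over all features (SD) from 0.29 to 0.338, apart from array 6 at 0.427. Array 6 also stood apart in marker lists of other tissues: the mean of 9 muscle genes was -1.60 there, against -0.48 to 0.65 on the other 6 arrays, and that of 7 neuronal genes was -0.52, against -0.11 to 0.14. The stop codon of lolaORE76 need not lower lola RNA, so the 4 lola features, at 0.65, 0.34, 0.10 and 0.01, are no check of the labels. Those at 0.65 and 0.34 passed as higher in the mutant in limma (adjusted p = 0.00944 and 0.0136). A ratio without spot intensities gives no level, so it could not be checked whether a gene or cell type marker was expressed at all.

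A minority of the guidance genes differed between mutant and control, by small amounts and in both directions. Of the 32 features, 9 passed the test (limma's moderated test that the 7-array mean is 0, with the p-value adjusted over all 10227 features and a threshold of 0.05), against 6.11% of all features. Of these, 6 were higher and 3 lower in the mutant, where 3.59% and 2.52% of all features were called. In terms of genes, Dscam1, fra, Ten-m, caps and dlp rose and sgl and NLaz fell, which is 7 of 26 (26.9%), against 6.04% of 7585 genes (3.51% higher and 2.53% lower). The same 7 genes passed when clones were averaged first, as did 5.62% of all genes. This share is not independent of the arrays. Among the measured genes, 6 had been singled out in the study from these same arrays, and all 6 are among the 7 that passed. Of the other 20 genes 1 passed, Ten-m, which is 5.0%. Taking out genes picked for changing on these arrays lowers this share, so it cannot be compared with the share over all genes.

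No feature changed by 2-fold or more. The median of the 32 features was -0.02, beside -0.012 for all features, with arrays normalized to medians near 0 and members on both sides of it. The median absolute log2 ratio was 0.14, against 0.08 over all features, while the spread between arrays was similar (median SD 0.17 and 0.19). All 7 arrays had the same sign for 9 of the 32 features, as for 9.7% of all features. Those 9 comprised 6 of the features that passed and 3 that did not (Fas1, Nrg and comm2).

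**Figure D1:**
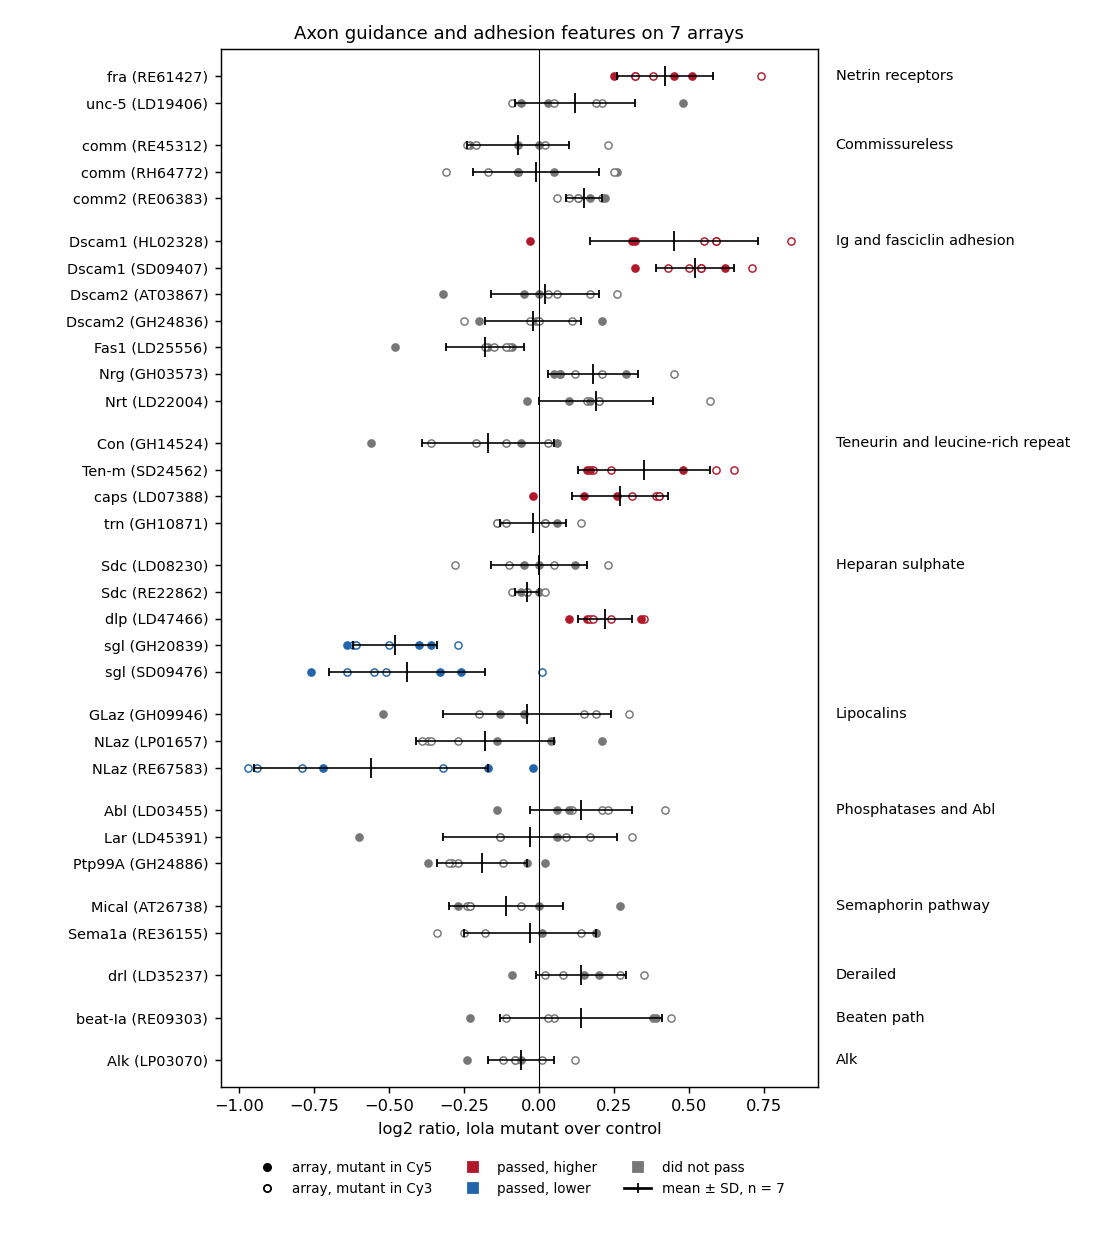
Log2 ratio of lola mutant over control (x axis) for the 32 features of axon guidance and adhesion genes (rows, grouped by role, with the clone in brackets). Circles are single arrays, filled where the mutant RNA carried Cy5, and bars are the mean ± SD of 7 arrays. The 6 features that passed as higher have means from 0.22 to 0.52 and the 3 that passed as lower from -0.56 to -0.44.

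Of the netrin receptors, fra was higher in the mutant and unc-5 did not pass. fra encodes Frazzled, the attractive receptor of the DCC family. On its clone RE61427 the lowest array was at 0.25, the median at 0.38 and the highest, array 4, at 0.74. All 7 arrays lay above 0, and the mean of 0.42 ± 0.16 (SD, n = 7), a 1.34-fold rise, had an adjusted p of 0.00598. unc-5, the receptor for repulsion, ranged from -0.09 to 0.48 with a median of 0.05, and its mean was 0.12 ± 0.20 (adjusted p = 0.437). Its arrays fell on both sides of 0, with 5 above it. The 95% interval of unc-5 ran from -0.05 to 0.28. The receptors were then compared array by array, as were 5 other pairs of related genes, all chosen with these results known: fra exceeded unc-5 by 0.31 ± 0.19, in 6 of 7 arrays (exact sign-flip permutation test, two-sided, p = 0.0312, adjusted over 6 gene pairs 0.0469).

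Of the Slit pathway, the rule gave features only for the commissureless genes, and neither passed. Commissureless keeps Robo from the surface of axons that are about to cross the midline. The 2 clones of comm were at -0.07 ± 0.17 and -0.01 ± 0.21, with arrays between -0.31 and 0.26 that straddled 0. comm2, a relative separated from comm by 2 protein-coding genes, lay above 0 on all 7 arrays, from 0.06 to 0.22 with a median of 0.13. Its mean was 0.15 ± 0.06 with an adjusted p of 0.109. The difference between comm2 and comm was 0.19 ± 0.17, positive on 6 of 7 arrays, and did not pass after adjustment over the 6 pairs (exact permutation p = 0.0469, adjusted 0.0563).

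Among the immunoglobulin and fasciclin adhesion genes, Dscam1 rose on both of its clones. Dscam1 encodes a receptor with very many splice forms that neurites use to recognise themselves. Clone SD09407 ran from 0.32 on array 1 to 0.71 on array 4, with a median of 0.54. Its mean was 0.52 ± 0.13, a 1.44-fold rise (adjusted p = 0.00115), the smallest adjusted p among the 32 features. Clone HL02328 ran from -0.03 on array 1 to 0.84 on array 7, with a median of 0.55, and had a mean of 0.45 ± 0.28 (adjusted p = 0.0218). Its values were less even than those of the first clone, with array 1 just below 0 and the other 6 above it. The clones differed by 0.07 ± 0.25, less than the spread between arrays (exact permutation p = 0.469; interval of the difference -0.19 to 0.30).

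Dscam2, its relative, did not pass on either clone. The clones of Dscam2 had means of 0.02 ± 0.18 (adjusted p = 0.916) and -0.02 ± 0.16 (adjusted p = 0.892). Averaged over clones, Dscam1 was above Dscam2 on all 7 arrays, by 0.31 to 0.69, with a mean difference of 0.49 ± 0.12. The exact permutation p of 0.0156 is the smallest that 7 arrays can give (adjusted over 6 pairs 0.0469). The other adhesion genes had smaller means. Nrg, the L1-type molecule neuroglian, was at 0.18 ± 0.15 (adjusted p = 0.132), with all arrays above 0. Nrt, which encodes neurotactin, was at 0.19 ± 0.19 (adjusted p = 0.15) and reached 0.57 on array 7. Fas1, the fasciclin gene of commissural axons, was at -0.18 ± 0.13 (adjusted p = 0.113), with all arrays below 0 and array 6 lowest at -0.48. Their 95% intervals, 0.04 to 0.32, 0.04 to 0.35 and -0.32 to -0.05, did not include 0, and none passed after adjustment over all features.

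A pair of clones outside the rule bears on this group. The study's own list of changed clones assigns RE66907 to Fas3 and GH11519 to mfas, while the platform table used here names no gene for either. They had means of 0.40 ± 0.25 (adjusted p = 0.0241) and 0.38 ± 0.23 (adjusted p = 0.0236). Array 1 was at -0.01 for RE66907 and its other 6 arrays were above 0, and all arrays of GH11519 were above 0. Because that list holds only clones that changed on these arrays, these values are a description and are not counted above.

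The target-matching genes split by gene. Ten-m encodes a teneurin that pairs motor axons with muscles. On clone SD24562 it ran from 0.16 to 0.65 with a median of 0.24. All arrays were above 0, but arrays 3, 4 and 7, at 0.48, 0.65 and 0.59, were well above the other 4, which lay between 0.16 and 0.24. The mean was 0.35 ± 0.22, a 1.28-fold rise (adjusted p = 0.0269). caps, which encodes the leucine-rich repeat protein Capricious, ran from -0.02 on array 6 to 0.40 on arrays 5 and 7, with a median of 0.31. Array 6 was the only one below 0, and the mean of 0.27 ± 0.16, a 1.21-fold rise, had an adjusted p of 0.0364, the largest among the features that passed.

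The relatives of caps did not follow it. trn, for the related protein Tartan, lies 2 protein-coding genes away and had a mean of -0.02 ± 0.11 (adjusted p = 0.876), with arrays from -0.14 to 0.14. The difference between caps and trn was 0.29 ± 0.19, positive on 6 of 7 arrays (exact permutation p = 0.0312, adjusted 0.0469). Con, which encodes the leucine-rich repeat protein connectin, was at -0.17 ± 0.22 (adjusted p = 0.264), and its lowest array was array 6 at -0.56.

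Of the 3 measured genes of heparan sulphate, sgl fell, dlp rose and Sdc did not pass. sgl encodes UDP-glucose dehydrogenase, which makes the sugar nucleotide for the chains of heparan sulphate. Its clone GH20839 ran from -0.64 to -0.27 with a median of -0.50, and all 7 arrays were below 0. The mean was -0.48 ± 0.14, which is 1.40-fold lower (adjusted p = 0.00218). Clone SD09476 ran from -0.76 to 0.01 with a median of -0.51 and a mean of -0.44 ± 0.26 (adjusted p = 0.0203). On both clones array 6 was lowest and array 7 highest, and the clones differed by -0.05 ± 0.13 (exact permutation p = 0.375; interval -0.17 to 0.06).

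Both dlp and Sdc encode core proteins that carry those chains, dlp the glypican Dally-like and Sdc syndecan. The dlp clone LD47466 ran from 0.10 to 0.35, with a median of 0.18, and every array was above 0. The mean of 0.22 ± 0.09 was the smallest of the changes that passed, at 1.17-fold (adjusted p = 0.0347). Sdc was close to 0 on both clones, with adjusted p of 0.737 and 0.98, and the 95% interval of its clone RE22862 was -0.14 to 0.07. dlp exceeded Sdc on all 7 arrays, by 0.12 to 0.51 (mean difference 0.24 ± 0.13; exact permutation p = 0.0156, adjusted 0.0469).

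**Figure D2:**
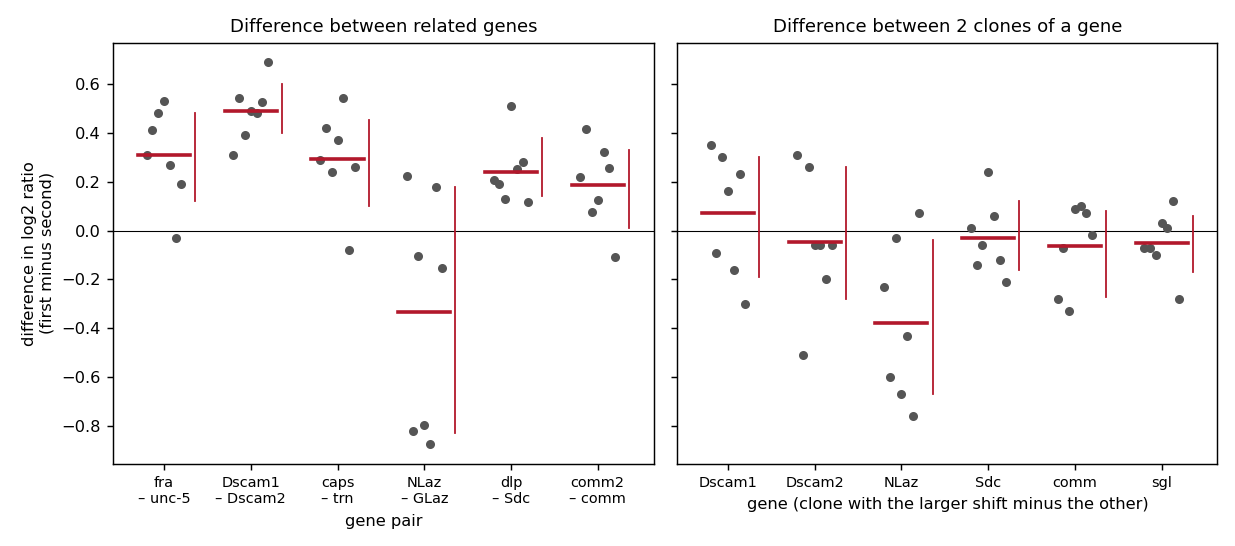
Differences in log2 ratio between related genes (left, averaged over clones) and between both clones of 1 gene (right). Each dot is an array, thick lines are means over 7 arrays, and thin vertical lines are 95% intervals from the exact sign-flip test. Dscam1 exceeded Dscam2, and dlp exceeded Sdc, on all 7 arrays, while NLaz minus GLaz spread from -0.88 to 0.22.

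The lipocalin NLaz was lower in the mutant on 1 of its 2 clones. NLaz and GLaz are relatives of a grasshopper protein of pioneer axons, Lazarillo. Clone RE67583 ran from -0.97 to -0.02 with a median of -0.72. Arrays 2, 4, 5 and 6 lay between -0.97 and -0.72 and array 1 was near 0, and the mean was -0.56 ± 0.39 (adjusted p = 0.0262). Clone LP01657 ran from -0.39 to 0.21, with a median of -0.27 and a mean of -0.18 ± 0.23 (adjusted p = 0.254). Arrays 1 and 6 were above 0 on this clone. The clones differed by -0.38 ± 0.32, in 6 of 7 arrays, which did not pass over the 6 genes with 2 clones (exact permutation p = 0.0469, adjusted 0.281). Averaged over clones, NLaz was at -0.37 ± 0.27 and just under the threshold (adjusted p = 0.0472). The paper names a different clone for its array value of NLaz, and reports less NLaz RNA in the mutant by quantitative RT-PCR as well.

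GLaz, the glial relative, was at -0.04 ± 0.28 (adjusted p = 0.887), with 4 arrays below 0 and 3 above. NLaz minus GLaz was -0.33 ± 0.48 and did not pass (exact permutation p = 0.172; interval -0.83 to 0.18). Of the 6 pairs of related genes 4 differed after adjustment, but these pairs were chosen with the results known, so their count is not independent evidence. For the 6 genes with 2 clones no clone pair differed at an adjusted p under 0.05, with 1 at an unadjusted exact p below it, that of NLaz.

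None of the phosphatases, kinases and cytoplasmic effectors passed in limma. Ptp99A, a receptor tyrosine phosphatase of motor axons, came nearest, with a mean of -0.19 ± 0.15 (adjusted p = 0.108), the lowest adjusted p among the 23 features that did not pass. It was below 0 on 6 of 7 arrays. Lar, another receptor phosphatase, had arrays from -0.60 to 0.31 and a mean of -0.03 ± 0.29. Array 1 was the lowest for this gene, and the next lowest was at -0.13. Abl, the cytoplasmic tyrosine kinase that acts downstream of several guidance receptors, was at 0.14 ± 0.17 (adjusted p = 0.286).

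Among the 47 genes, the semaphorin, Wnt, Beaten path and Alk systems were each represented by 1 or 2 measured genes. Relatives outside the 47 were on the arrays too: Sema5c, Drl-2, dnt, otk2, beat-Ic, beat-IIa, beat-IIIc and side-VI. Their means ran from -0.22 to 0.20, and none passed in limma. Sema1a, a transmembrane semaphorin, was at -0.03 ± 0.22 (adjusted p = 0.874), and Mical, the enzyme that disassembles actin downstream of plexin, at -0.11 ± 0.19 (adjusted p = 0.466). drl, the receptor Derailed for Wnt5, was at 0.14 ± 0.15 (adjusted p = 0.258) with 6 of 7 arrays above 0. beat-Ia, which encodes a secreted immunoglobulin protein that lets motor axons leave their bundle, ran from -0.23 to 0.44 with a mean of 0.14 ± 0.27 (adjusted p = 0.464). Its arrays 1, 3 and 4 were between 0.38 and 0.44 and the other 4 between -0.23 and 0.05. Alk, the receptor tyrosine kinase for Jelly belly, was at -0.06 ± 0.11 (adjusted p = 0.58). Over all 23 features that did not pass, means ran from -0.19 to 0.19, 15 of them below 0, and no 95% interval reached beyond 0.36 on either side. Without adjustment, 5 of the 23 had a p under 0.05, and with the 9 that passed this made 14 of 32, against 19.7% of all features.

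The test was repeated without each array in turn. Dscam1 (SD09407), fra and sgl (GH20839) passed in all 7 repeats, with adjusted p no higher than 0.0202. The other 6 features did not. Without array 2, 4 or 5 the count fell from 9 to 3 in each case, and HL02328 of Dscam1, SD09476 of sgl, RE67583 of NLaz, Ten-m, caps and dlp lost their calls. The share of all features called fell as well, from 6.11% to 2.41%, 2.71% and 2.82%. Without array 3 the count was 6 (4.3% of all features), and without array 7 it was 5 (4.54%). Without array 1 all 9 passed (7.13%). Without array 6, which stood apart, 8 of the 9 passed (7.58%) and dlp was lost (adjusted p = 0.0581). Weighting the arrays by their fit raised the count to 15 (20.1% of all features), the added ones being comm2, Fas1, Nrg, Nrt, Ptp99A and LP01657 of NLaz. These weights followed dye orientation. They were 0.455 to 0.672 on the arrays with the mutant in Cy5 and 0.837 to 2.55 on those with it in Cy3. A minimum fold of 1.1 in the test left Dscam1 (SD09407), fra and sgl (GH20839), where 1.8% of all features passed.

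**Figure D3:**
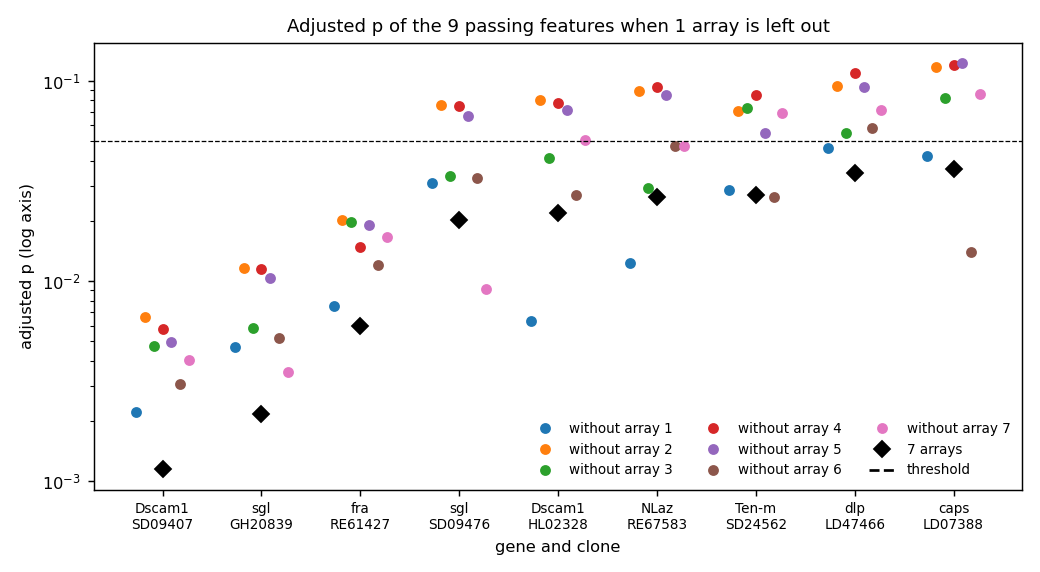
Adjusted p (log axis) of the 9 features that passed, with all 7 arrays (black diamonds) and with each array left out (coloured dots). The dashed line is the threshold of 0.05. Only Dscam1 SD09407, sgl GH20839 and fra stayed below it in every case.

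Dye orientation was compared because the 7 arrays were not balanced. All 9 features that passed had means of the same sign on the 3 arrays with the mutant in Cy5 and on the 4 with the mutant in Cy3. The values were nearly equal for fra (0.40 and 0.44), SD09407 of Dscam1 (0.49 and 0.55), dlp (0.20 and 0.24) and both clones of sgl (-0.47 and -0.50 for GH20839, -0.45 and -0.43 for SD09476). They were farther apart for HL02328 of Dscam1 (0.20 and 0.64; dye term, adjusted p = 0.0522), caps (0.13 and 0.37; adjusted p = 0.144) and RE67583 of NLaz (-0.30 and -0.75; adjusted p = 0.206), and Ten-m lay between these groups (0.27 and 0.42; adjusted p = 0.577). With a dye term in the fit the same 9 features passed for genotype (8.53% of all features). The 4 arrays with the mutant in Cy3 gave 13 calls by themselves, against 24.5% of all features, and the 3 with it in Cy5 gave 0 of all features in limma, where 5 of the 32 had an unadjusted p under 0.05. The dye term itself passed for 1 of the 32 features, against 11.5% of all features: clone LP01657 of NLaz was at 0.04 with the mutant in Cy5 and at -0.35 with it in Cy3 (adjusted p = 0.0476). The part of dye in this difference, as against the embryos used, was not tested.

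**Figure D4:**
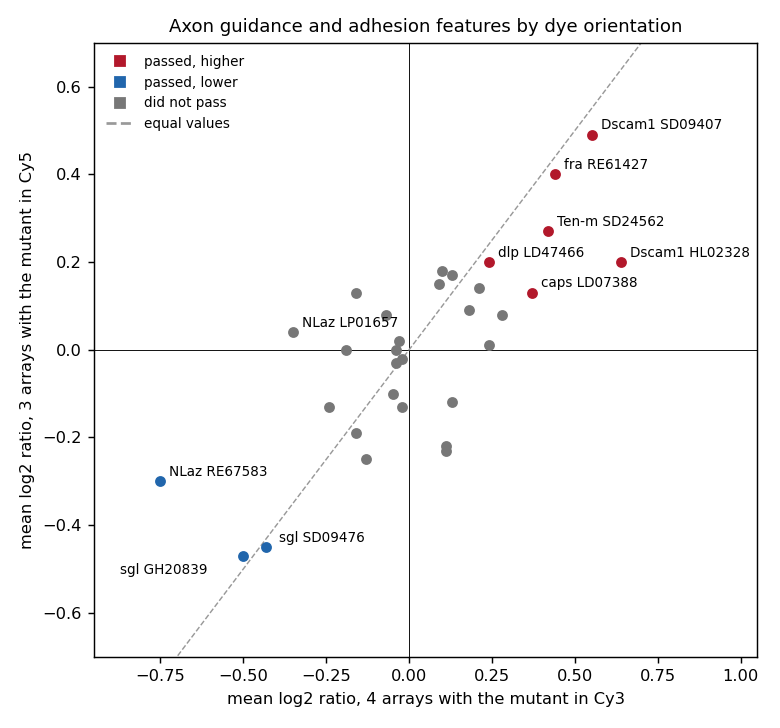
Mean log2 ratio of each of the 32 features on the 4 arrays with the mutant in Cy3 (x axis) against the 3 arrays with the mutant in Cy5 (y axis). Points on the dashed line have equal values. The features that passed lie in the upper right or lower left of the plot, with HL02328 of Dscam1 and RE67583 of NLaz farthest from the line among them.

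The rest of the pathway was read from lists that did not include the 26 genes. Of 43 further receptors, ligands, adhesion and matrix genes, 0 rose and 1 fell in limma, which is 2.33%, against 6.04% of all genes; at an unadjusted p under 0.05, 6 of their 49 features were higher and 2 lower. The gene that fell was Pvf1, a ligand of the PDGF and VEGF type, at -0.28 ± 0.16 (adjusted p = 0.0349). The median of these 43 genes was 0.01, beside -0.02 for all genes.

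Of 16 genes of guidance signalling and the cytoskeleton behind it, 4 rose and 1 fell, which is 31.2%, against 6.04% of all genes. spir, the actin nucleator, rose by 1.24 ± 0.51 and 0.97 ± 0.39 on its clones (adjusted p = 0.00218 and 0.00237), a change larger than any of the 32 guidance features. pros, a transcription factor of neural precursors, rose by 0.42 ± 0.22, and Moe, the moesin that links actin to the membrane, by 0.38 ± 0.19. The 4 that rose and Pvf1 were among the genes singled out in the study from these arrays, so their counts are not independent evidence.

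Markers of cell types were measured beside these genes, and their counts stand against the 6.04% of all genes that were called. Of 7 neuronal genes, 0 passed in limma. At an unadjusted p under 0.05, 3 features were higher, all of them clones of unc-13, and 2 were lower, from nSyb and nrv3. The mean of the 7 genes was -0.08 ± 0.21 over arrays, from -0.52 on array 6 to 0.14. Of 10 glial genes 2 fell, Gs2 at -0.57 ± 0.26 and alrm at -0.37 ± 0.24, and the list mean ran from -0.23 to -0.02. Without adjustment, 4 of the 11 glial features were lower and 1 was higher at a limma p under 0.05. The other glial genes did not pass and lay on both sides of 0. Means were 0.02 to 0.15 for repo, loco, moody and nrv2, and -0.16 to -0.03 for wrapper, Indy, Gli and htl. Of 9 haemocyte genes 3 rose, Pxn on 1 clone (0.53 ± 0.12), PPO1 at 0.40 ± 0.19 and PPO2 at 0.26 ± 0.11. The other clone of Pxn was at 0.18 ± 0.21 and did not pass (limma, adjusted p = 0.215). The haemocyte list mean lay between 0.16 and 0.35 apart from array 6 at -0.10. Of 7 tracheal genes 1 rose, salr at 0.25 ± 0.14, and of 5 genes of epidermis and cuticle 1 fell, Pu at -0.79 ± 0.34. Of 9 muscle and 3 midline genes 0 passed in limma, and 0 of their features had an unadjusted p under 0.05. The part of cell composition in the guidance genes was not tested.

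The position of the genes was also compared, since lola lies on the second chromosome, which was recombined with the allele. Of 11 measured guidance genes on that chromosome 3 passed (fra, Dscam1 and NLaz), and of 14 on the third 4 did (sgl, dlp, caps and Ten-m). Over all features with 1 gene, 6.4% were called on the second chromosome and 5.34% on the third. Nrg was the 1 gene on the X chromosome, where 4.52% of features were called, and did not pass.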

How the data were processed

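Spot intensities of the spotted cDNA arrays were extracted by the authors with GenePix and processed in limma, whose version the sources used here do not give, with no background correction, print-tip loess within arrays and scale between arrays. They deposited log2 ratios, 1 column per array, with 0 missing values in 10376 features and both dye orientations already turned to 1 direction (all 45 features with a mean over 1 in size had the same sign on both). Here every sign was turned, as explained above, and 149 control spots were left out. Without intensities, bright and dim spots are alike in the table, and precision is limited by how many arrays there are. The series' design text calls the 7 pairs biological replicates.

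Features were matched to genes by gene ID in RefSeq (Release 6 plus ISO1 MT), and clones that the study's list assigns to transposons or several sequences were left out of gene counts. In R 4.3.3, limma 3.58.1 (lmFit, eBayes) was run on all 10227 features, with the test named in the methods (which kept the control spots), Benjamini-Hochberg adjustment and no minimum fold. The script was tested on simulated data. A gene counted when at least 1 feature passed and none passed the other way. Differences between genes or clones were tested by flipping the signs of 7 array differences in all ways (two-sided, smallest p 0.0156), with intervals from the same test. All measured genes are named, and genes of the pathway and marker lists where they passed, apart from 2 of the signalling list that are not reported here. Genes and lists were chosen with earlier results of these data known. Columns of the study's own fold changes were used for their sign only.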

Additional observations from a re-analysis of the deposited data

Results flagged for a closer look

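Single arrays stood far from the other 6 in a few features. Nrt reached 0.57 on array 7, and Fas1 was at -0.48 on array 6. Array 6 also lay apart in the means of 3 marker lists, at -0.52 for neuronal genes, -0.10 for haemocyte genes and -0.58 for genes of epidermis and cuticle. The rule used for such values marks about 1 in 20 groups by chance. Clone LP01657 of NLaz differed between dye orientations by 0.38 (mutant in Cy5 minus mutant in Cy3), with a dye term that passed at an adjusted p of 0.0476 in limma.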

How the results depend on the processing

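The robust prior, median-centred or quantile-normalized arrays, retained control spots and a dye term each gave the same 9 features and 7 genes. Array weights gave 15 features and 12 genes (20.1% of all features called), a minimum fold of 1.1 gave 3 and 3, and Benjamini-Yekutieli adjustment 2 and 2. The arrays with the mutant in Cy5 alone gave 0 and 0 in limma, with 5 guidance features and 1751 of all features at an unadjusted p under 0.05, and those in Cy3 alone gave 13 and 10. Without each array in turn, the counts ran from 3 to 9 features and from 3 to 7 genes. Averaging over clones first kept the count at 7 genes. The 6 calls among other pathway genes became 14 with array weights, 14 with Cy3 arrays alone, 1 with the minimum fold, 1 with Benjamini-Yekutieli, 0 with Cy5 arrays alone and 2 to 7 without 1 array. The dye term passed for 0 to 3 features without 1 array. The cause of these shifts was not tested, beyond fewer arrays or a stricter criterion where that is the alternative.

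No feature that passed changed sign under any alternative. For the 6 with all 7 arrays of the same sign, leaving out, splitting or weighting arrays could not have changed it. A stricter criterion leaves every mean as it is, so it could not change a sign either. Some that did not pass changed sign: with the arrays in Cy5 alone, AT03867 of Dscam2 was at -0.12, LD08230 of Sdc at 0.02, LP01657 of NLaz at 0.04, Sema1a at 0.13 and RH64772 of comm at 0.08, where a dye term gave 0.00. With the arrays in Cy3 alone GLaz and Lar were both at 0.11, and with array weights at 0.10 and 0.01. Leaving out 1 array, AT03867 ran from -0.02 to 0.08, GH24836 of Dscam2 from -0.06 to 0.01, GLaz from -0.09 to 0.04, LD08230 from -0.04 to 0.04, Lar from -0.09 to 0.06, Sema1a from -0.07 to 0.02 and RH64772 from -0.05 to 0.04. No further paired analysis was possible because each ratio is already the difference within its pair, so the test used is the paired one.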
